A study of Mus musculus with 10 samples.

Results

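The MYC, MAX and MXD network is described here in tumours of TH-MYCN mice through 10 genes out of 54446 gene identifiers counted. They were chosen by symbol, as the MYC paralogues Mycn, Myc and Mycl, their common partner Max, and the genes whose proteins compete for MAX: Mnt, Mxd1, Mxd3, Mxd4, Mxi1 and Mga. All 10 had an identifier, counts in every library and a place among the 14956 genes that passed the filter on low counts. RNA sequencing of polyadenylated RNA compared tumours of untreated mice (n = 3), tumours after 24 h of a drug combination (n = 3) and tumours after 5 days of it (n = 4). The agents were MLN8237, which is alisertib and blocks the mitotic kinase Aurora-A, and AZD6738, which is ceralasertib and blocks ATR, a kinase of the response to replication stress. The titles of the samples call the treatment a combination, while the design text puts "or" between the names. Every mouse, treated or not, was of the TH-MYCN strain, in which a tyrosine hydroxylase promoter drives a human MYCN transgene in sympathetic cells. The labels give no age, and they do not state that each library is a different mouse. The p-values therefore measure the spread between libraries, which may be technical.

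MYC proteins work mainly as pairs with MAX. A MYC-MAX pair binds the E-box CACGTG and recruits coactivators to promoters, while MXD, MXI1 and MNT proteins pair with the same MAX, bind the same letters and recruit SIN3 and histone deacetylases that repress transcription. MGA pairs with MAX as well and is part of a Polycomb complex named PRC1.6. MYCN is the paralogue of the sympathetic lineage and the main oncogene of high-risk neuroblastoma, and Aurora-A is known to bind the MYCN protein and to shield it from degradation, a step that mRNA counts do not show.

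In RefSeq's promoter table (build GRCm38.p6, the assembly also called mm10), 9 of the 10 genes had an entry, with 11 promoters in all, each from 250 bases before to 50 after the start. Positions below count back from that start. The E-box CACGTG, which reads alike on both strands, was in the promoters of Max, Mnt and Mxd4 (3 of 9 genes, and 3 of their 11 promoters). Of all 32851 promoters in the table, 7.15% held it. The RefSeq start used for Max is not the start of any GENCODE transcript and lies outside the gene's GENCODE span. These 3 stretches are shown because they carry the letters that the network's own proteins bind, with the E-box in capitals.
Max, chr12:76962244-76962268, minus strand: ggcgcggtgagcccggtCACGTGtt
Mnt, chr11:74830784-74830823, plus strand: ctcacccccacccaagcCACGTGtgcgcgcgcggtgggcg
Mxd4, chr5:34187907-34187946, minus strand: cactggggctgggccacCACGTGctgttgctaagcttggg

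The Mycn promoter had no E-box in its window but held letters of the E2F type, the sites of the cell cycle factors of that name. TTTGGCGC was found at -183 and -168 and TTTCGCGC at -179 on the opposite strand, where it overlaps the copy at -183 (both strands were searched for both motifs). Of all promoters, 0.514% held TTTGGCGC and 0.323% TTTCGCGC. The stretch is shown because the mouse gene is read from this promoter, whereas the transgene is read from that of tyrosine hydroxylase. The capitals mark the E2F letters.
Mycn, chr12:12941915-12942086, minus strand: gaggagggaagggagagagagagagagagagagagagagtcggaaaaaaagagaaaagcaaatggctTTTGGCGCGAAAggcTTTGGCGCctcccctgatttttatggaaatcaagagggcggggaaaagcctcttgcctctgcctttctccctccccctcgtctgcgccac
The Mxd3 promoter is shown because Mxd3 has, of the 10 network genes and in the 9 libraries without 5-day library 1, the smallest unadjusted p against untreated tumours. It held no E-box in its window and 8 copies of the GC box GGGCGG, some of them overlapping. At least 1 copy on either strand was in 8 of the 9 network genes with an entry, and in 10 of their 11 promoters. Of all promoters, 35.7% held at least 1 copy. A stretch with 3 of the Mxd3 copies is printed, with the GC boxes in capitals.
Mxd3, chr13:55329824-55329883, minus strand: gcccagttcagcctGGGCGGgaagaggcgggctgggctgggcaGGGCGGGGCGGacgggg
A match of letters is a description of the sequence and says nothing on whether a factor was bound.

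Libraries held 5576926 to 5696436 counts, at which 3 counts correspond to 0.527 to 0.538 CPM of the total before TMM scaling. Everywhere else, CPM is the read count scaled to a common library total, with the TMM method correcting for library composition. A single library, 5-day library 1, stood apart: across genes, it had a mean Spearman correlation with the rest of 0.74, where each of the other 9 had 0.944 to 0.954. Its 19 adrenergic tumour cell markers summed to 917 CPM, against 2474 to 3923 CPM in the others. Its 16 macrophage markers summed to 13994 CPM (others 581 to 1642), its 14 fibroblast markers to 18350.0 CPM (382 to 2852) and its 10 adipocyte markers to 8547 CPM (18.2 to 1113). Among the other libraries, macrophage markers summed to 581 to 984 CPM in untreated tumours, 1252 to 1537 CPM at 24 h and 1001 to 1642 CPM in 5-day libraries 2 to 4. Adrenal cortex markers reached 1605 CPM in 5-day library 2, where the other libraries held 10.6 to 97.0 CPM. The fold changes of the network genes are therefore given with all 10 libraries and with the 9 without 5-day library 1. The biological coefficient of variation of the fit was 40.8% with 10 and 18.9% with 9.

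Levels of different genes can be set side by side only per length, so CPM was divided by the length of all annotated exons in kb. Over the 9 libraries, Mycn was the most abundant of the 10, at 29.0 ± 3.25 CPM per kb (SD, n = 9), above 80.1% to 86.1% of all tested genes. Max followed at 25.0 ± 2.71, Mnt at 23.5 ± 4.48, Mxd3 at 20.7 ± 3.33 and Mxi1 at 20.1 ± 1.63 CPM per kb. The mean ± SD ranges of neighbours among these 5 overlapped. A gap then led to Mga at 10.9 ± 1.84 CPM per kb, Mycl at 5.81 ± 1.05 and Mxd4 at 4.73 ± 0.844, and the last 2 of these again overlapped. Mxd1, at 1.84 ± 0.347, and Myc, at 1.15 ± 0.489 CPM per kb, were lowest and overlapped as well. Divided by the longest transcript instead, Max led with 46.3 ± 5.02 and Mycn came next with 35.8 ± 4.00 CPM per kb, so the place of these 2 depends on the length chosen.

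**Figure D1:**
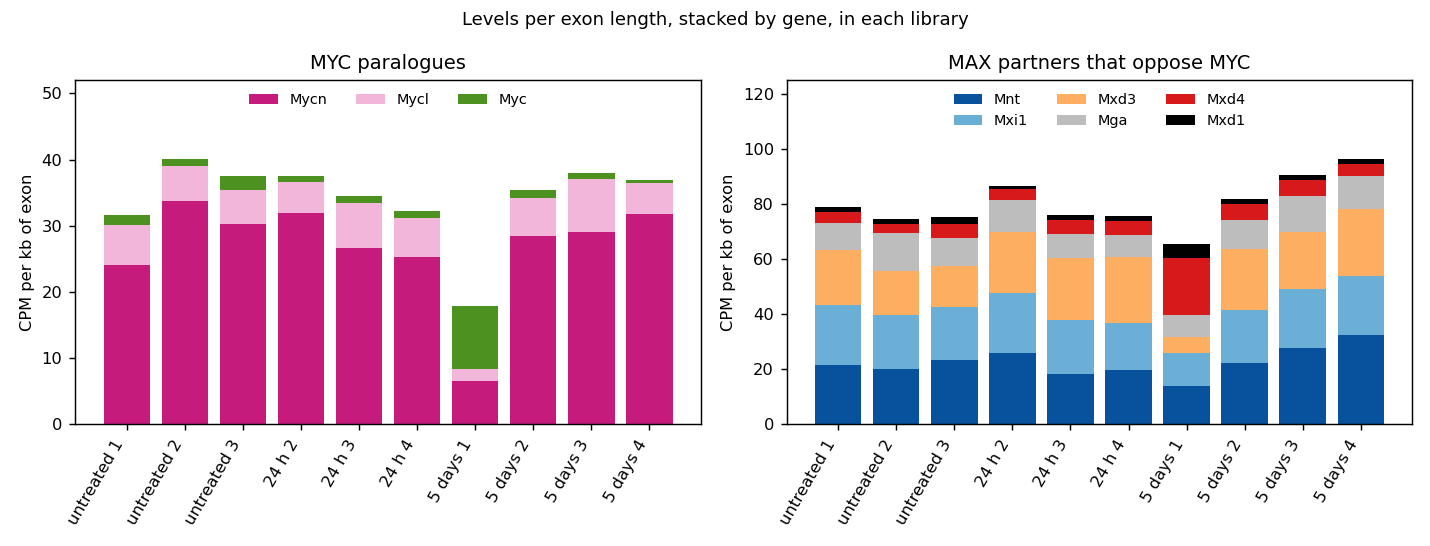
Levels per exon length (CPM per kb) in each of the 10 libraries, stacked by gene, for the 3 MYC paralogues (left) and the 6 other partners of MAX (right). Mycn fills 76.0% to 85.8% of the left bars except in 5-day library 1, where Myc fills 53.6%.

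Mycn dominated the paralogues in all 3 groups. It made up 76.0% to 84.3% of the summed paralogue level per kb in untreated tumours, 77.3% to 85.0% at 24 h and 76.6% to 85.8% in 5-day libraries 2 to 4. In 5-day library 1 its share was 36.5% and that of Myc 53.6%. Where transgene reads from human MYCN aligned to mouse Mycn, the counts do not tell the 2 apart.

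Mycn, the mouse counterpart of the human transgene that drives the model, did not pass the test in any comparison. For it, 9 of the 10 libraries lay between 79.4 and 111 CPM. In untreated libraries 1, 2 and 3 it was at 79.4, 111 and 99.8 CPM. At 24 h it was at 105, 88.0 and 83.1 CPM in libraries 2, 3 and 4. After 5 days its values were 21.5 CPM (library 1), then 93.9, 95.8 and 105 CPM (libraries 2 to 4). The groups overlapped in each comparison, and 5-day library 1 was the lowest value of all 10. With all libraries the log2 fold change was -0.07 ± 0.462 (SE) at 24 h and -0.29 ± 0.430 at 5 days against untreated tumours (adjusted p = 1.00 and 0.772, edgeR quasi-likelihood, Benjamini-Hochberg). Without 5-day library 1 it was -0.06 ± 0.129 at 24 h, with a 95% interval of 0.786 to 1.16 as a ratio to untreated. At 5 days it was then 0.03 ± 0.128, with an interval of 0.838 to 1.24. A fall of Mycn by a factor of 2 would lie outside both of these intervals, whereas the intervals with all libraries reach from 0.462 to 1.96 and from 0.416 to 1.601. None of these fits pairs libraries by replicate number. With that number as a block and all 10 libraries, the log2 fold changes were -0.54 ± 0.401 (SE) at 24 h and -0.63 ± 0.360 at 5 days. In mm10, Mycn (ENSMUSG00000037169) is on chromosome 12 from 12936093 to 12941914, minus strand.

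The low Mycn of 5-day library 1 came with a low sum of the adrenergic list. Per 100 CPM of summed adrenergic markers, Mycn was at 2.35 CPM in that library, at 2.02, 3.58 and 3.05 CPM in the untreated libraries, at 2.77 to 3.28 CPM at 24 h and at 2.86 to 3.80 CPM in the other 5-day libraries. That ratio in 5-day library 1 was above that of untreated library 1 and below those of all other libraries. The divisor was not steady either. At 5 days against untreated in 9 libraries, 18 of the 19 adrenergic markers were lower, with a median log2 fold change of -0.3 and 0 called. In bulk tumour RNA, fewer cells of a type and less RNA per cell cannot be told apart.

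Myc, the broadly expressed paralogue, was low outside 5-day library 1. Its counts were 25, 16 and 34 in the untreated libraries, 14, 16 and 17 at 24 h, and 19, 14 and 7 in 5-day libraries 2 to 4, against 120 in 5-day library 1. As CPM these are 4.36, 2.78 and 5.90 for untreated tumours, 2.41, 2.78 and 2.95 at 24 h, and 26.1, 3.26, 2.40 and 1.24 at 5 days. The exact Poisson 95% interval of the 7 counts is 0.498 to 2.55 CPM and that of the 120 counts 21.6 to 31.2 CPM, for counting error only. With 9 libraries the log2 fold change was -0.67 ± 0.412 (SE) at 24 h and -0.90 ± 0.417 at 5 days (adjusted p = 0.712 and 0.600, edgeR, Benjamini-Hochberg). With all 10 it was -0.68 ± 1.01 at 24 h and 0.91 ± 0.934 at 5 days, so the sign at 5 days rested on that library. In 5-day library 1, where Myc was highest, the macrophage, fibroblast and adipocyte sums given above were highest too. Their part in the value was not tested.

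Mycl, the paralogue first found in lung cancer, was at 24.2, 21.2 and 20.7 CPM in untreated tumours and at 19.1, 27.5 and 23.8 CPM at 24 h. After 5 days its values were 7.17 CPM (library 1), then 23.0, 32.2 and 19.3 CPM (libraries 2 to 4). The groups overlapped, and the log2 fold change with 9 libraries was 0.10 ± 0.203 (SE) at 24 h and 0.18 ± 0.203 at 5 days. With all 10 it was 0.09 ± 0.428 and -0.11 ± 0.400, and none of these passed the threshold.

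**Figure D2:**
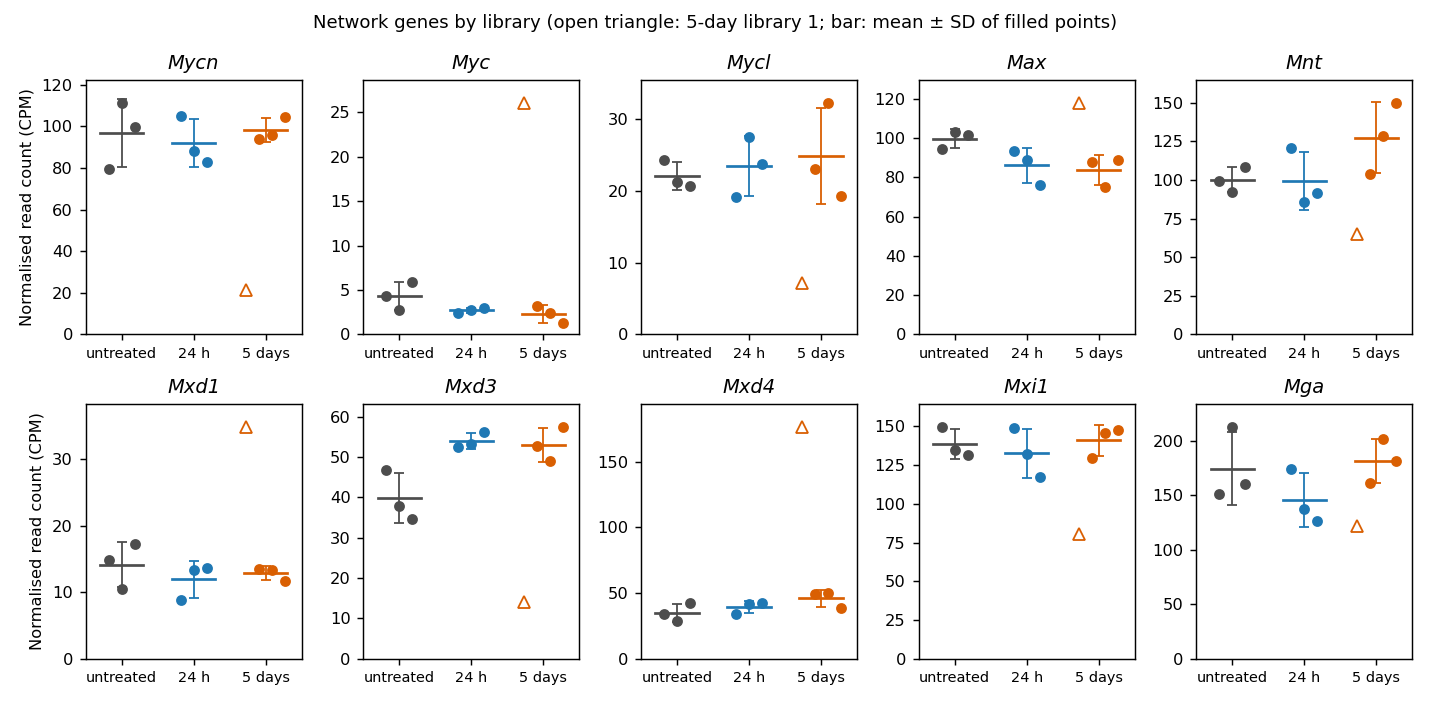
Normalised read count (CPM, linear axes from 0) of the 10 network genes in each library. Points are libraries, open triangles mark 5-day library 1, and lines with bars give the mean ± SD of the filled points. The open triangle lies outside the range of the other 9 libraries in all 10 genes, as it does in 75.9% of all tested genes.

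Max encodes the partner that the other proteins of the network share. It was at 94.3, 103 and 102 CPM in untreated tumours, at 93.5, 88.9 and 76.2 CPM at 24 h, and at 118, 87.7, 75.2 and 89.1 CPM in 5-day libraries 1 to 4. All 24 h libraries, and the 5-day libraries other than library 1, lay below the lowest untreated library. The difference was small, with a log2 fold change of -0.20 ± 0.103 (SE) at 24 h and -0.24 ± 0.103 at 5 days in the 9 libraries. Unadjusted p-values were 0.0740 and 0.0391, and adjusted p-values 0.646 and 0.569 (edgeR quasi-likelihood, Benjamini-Hochberg over 14699 genes). With all 10 libraries the values were -0.21 ± 0.167 and -0.11 ± 0.156. Max therefore did not pass the test in any comparison. The gene (ENSMUSG00000059436) is on chromosome 12 from 76937269 to 76962201, minus strand.

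Among the antagonists, Mxd3, an MXD protein known from dividing cells, had the smallest unadjusted p of the 10 network genes against untreated tumours in the 9 libraries. It was at 46.7, 37.9 and 34.7 CPM in untreated libraries, at 52.4, 53.2 and 56.2 CPM at 24 h, and at 14.1, 52.7, 49.0 and 57.4 CPM in 5-day libraries 1 to 4. Every treated library except 5-day library 1 was above the highest untreated one. The log2 fold change without that library was 0.45 ± 0.120 (SE) at 24 h, a ratio of 1.36 with a 95% interval of 1.14 to 1.64. At 5 days it was 0.42 ± 0.120, a ratio of 1.34 with an interval of 1.12 to 1.61. Unadjusted p-values were 0.00321 and 0.00478 and adjusted p-values 0.347 and 0.363 (edgeR, Benjamini-Hochberg over 14699 genes), so neither passed. Both comparisons use the untreated libraries and are not independent of each other. With all 10 libraries the values were 0.44 ± 0.412 and 0.12 ± 0.386. Mxd3 (ENSMUSG00000021485) is on chromosome 13 from 55325168 to 55329823, minus strand. Its exons share 105 bases with those of Prelid1 on the opposite strand, which had 728 to 891 counts per library. No source used here says whether the counting used strand, so reads from the shared bases cannot be told apart.

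Mnt, the antagonist found in nearly all cell types, was at 99.6, 92.5 and 109 CPM in untreated tumours and at 121, 85.6 and 91.3 CPM at 24 h. In 5-day libraries 1 to 4 it was at 65.2, 104, 128 and 150.0 CPM. The highest values were those of 5-day libraries 3 and 4, and library 2 lay within the untreated range. With 9 libraries the log2 fold change at 5 days was 0.35 ± 0.152 (SE) against untreated and 0.36 ± 0.152 against 24 h, with adjusted p = 0.572 and 0.623 (edgeR, Benjamini-Hochberg). At 24 h it was -0.01 ± 0.152. With all 10 libraries these values were 0.16 ± 0.256, 0.18 ± 0.257 and -0.02 ± 0.274.

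Mxd4 was the antagonist with the highest value of 5-day library 1. It was at 34.2, 28.5 and 42.2 CPM in untreated tumours, at 34.0, 41.9 and 42.3 CPM at 24 h, and at 176, 49.3, 50.4 and 38.6 CPM in 5-day libraries 1 to 4. The groups overlapped in every comparison, since 5-day library 4 was below untreated library 3 and 24 h libraries 3 and 4. Its log2 fold change at 5 days was 1.17 ± 0.505 (SE) with all libraries and 0.41 ± 0.167 without library 1. Unadjusted p-values were 0.0459 and 0.0329, and adjusted p-values 0.538 and 0.556 (edgeR, Benjamini-Hochberg). At 24 h it was 0.17 ± 0.526 with all libraries and 0.18 ± 0.168 in 9. MXD proteins of this kind are known from cells that leave the cycle and differentiate.

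Mxd1, the founding MXD gene, was at 14.8, 10.4 and 17.2 CPM in untreated tumours, at 8.77, 13.4 and 13.7 CPM at 24 h, and at 34.8, 13.6, 13.4 and 11.7 CPM in 5-day libraries 1 to 4. Its values outside 5-day library 1 overlapped between groups, with a log2 fold change of -0.23 ± 0.237 (SE) at 24 h and -0.13 ± 0.237 at 5 days. With all 10 libraries it was -0.24 ± 0.437 and 0.37 ± 0.410, so the sign at 5 days turned with that library. Mxi1, also called Mxd2, was at 132 to 149 CPM in untreated tumours, 117 to 149 CPM at 24 h and 129.6 to 147 CPM in 5-day libraries 2 to 4, with 80.4 CPM in library 1. Its log2 fold changes were -0.05 ± 0.102 at 24 h and 0.03 ± 0.102 at 5 days in 9 libraries, and -0.06 ± 0.216 and -0.14 ± 0.202 in all 10. Mga, whose protein carries a second DNA-binding domain of the T-box type, was at 151, 212 and 160.0 CPM in untreated tumours and at 174, 137 and 126 CPM at 24 h. After 5 days it was at 121, 161, 201 and 181 CPM. Its log2 fold change was -0.25 ± 0.151 at 24 h and 0.06 ± 0.151 at 5 days in 9 libraries, and -0.26 ± 0.217 and -0.07 ± 0.203 in all 10.

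**Figure D3:**
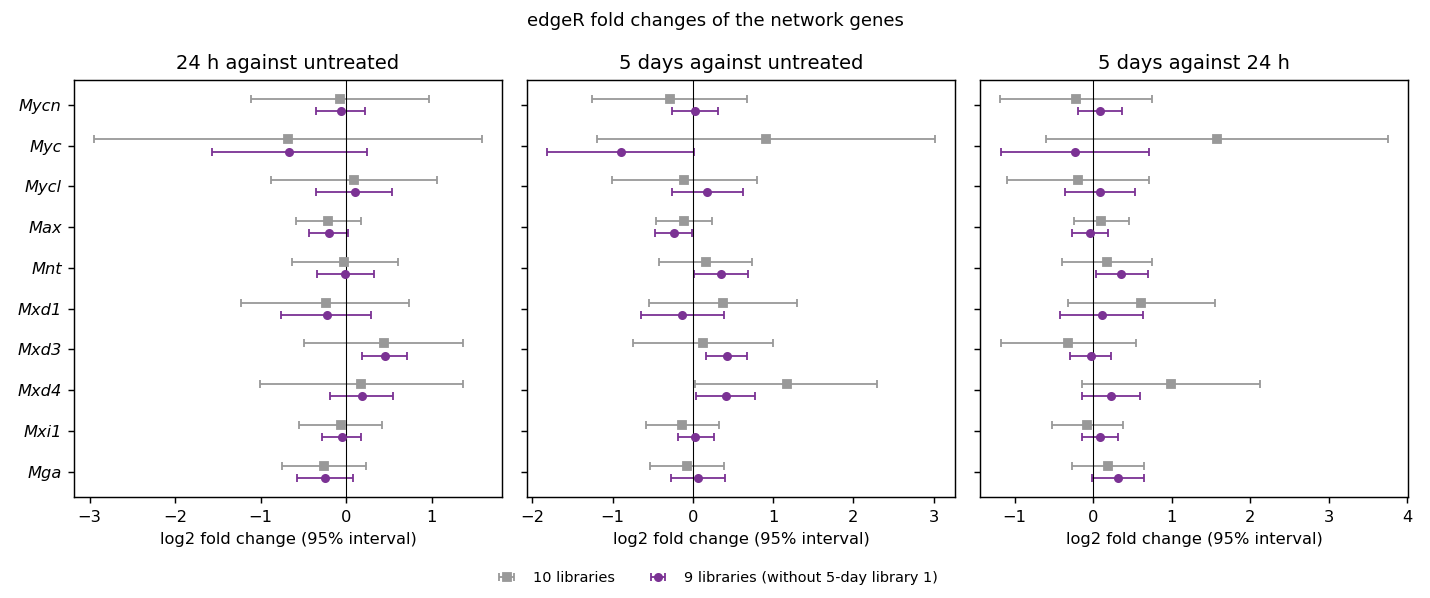
Log2 fold changes of the 10 genes with 95% intervals from edgeR, in the 3 comparisons, with all 10 libraries (grey squares) and without 5-day library 1 (purple circles). With 9 libraries the interval of Mycn at 24 h runs from -0.35 to 0.22, and that of Mxd3 from 0.18 to 0.71.

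Across the network, 0 of 10 genes were called in any comparison at an adjusted p of 0.05, with all 10 libraries or with 9. The background was equally sparse: with all libraries, 0.0% of 14956 tested genes were called at 24 h against untreated, 0.0% at 5 days against untreated and 0.0% at 5 days against 24 h by edgeR. With 9 libraries these shares were 0.0136%, 0.0% and 0.0% of 14699 genes. DESeq2 with all libraries called 0, 21 and 3 genes, none of them in the network. At an unadjusted p under 0.05, the network had 0, 1 and 0 genes with all libraries, where all tested genes had 1.76%, 8.4% and 6.31%. With 9 libraries it had 1 (Mxd3), 4 (Mxd3, Mxd4, Max and Mnt) and 1 (Mnt), beside backgrounds of 8.05%, 8.35% and 7.68%. At 24 h, 1 gene (Mxd3) lay wholly above the untreated libraries (background 7.11% of genes tested with 10 libraries and 7.15% with 9) and 1 (Max) wholly below (6.69% and 6.74%). For 5-day libraries 2 to 4 it was again 1 gene above (6.61%) and 1 below (7.6%) the untreated ones, and with 5-day library 1 included 0 above (4.01%) and 0 below (4.89%). Between 5 days and 24 h, 0 genes were apart, where the background was 3.32% above and 4.35% below with 10 libraries, and 5.25% and 6.68% with 9. For these counts of genes lying apart, 1 of 10 genes is close to the backgrounds. The 4 of 10 at an unadjusted p under 0.05, at 5 days against untreated with 9 libraries, are a larger share than the 8.35% of all tested genes. That difference was not tested, and the 4 genes share the same libraries. The median log2 fold change of the 10 was -0.06 at 24 h and 0.05 at 5 days with 9 libraries, and 0.00 over all tested genes in both. With all 10 libraries it was -0.07 and 0.03, beside -0.01 and 0.01.

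In mm10 the other members lie on several chromosomes, all annotated as protein-coding. Myc (ENSMUSG00000022346) is on chromosome 15 from 61985391 to 61990374, plus strand, and Mycl (ENSMUSG00000028654) on chromosome 4 from 122995652 to 123002485, plus strand. Mnt (ENSMUSG00000000282) is on chromosome 11 from 74830920 to 74845725, plus strand, and Mga (ENSMUSG00000033943) on chromosome 2 from 119897228 to 119969581, plus strand. Mxd1 (ENSMUSG00000001156) is on chromosome 6 from 86647042 to 86669161, minus strand. Mxd4 (ENSMUSG00000037235) is on chromosome 5 from 34173883 to 34187720, minus strand, and Mxi1 (ENSMUSG00000025025) on chromosome 19 from 53310518 to 53375810, plus strand. Exons of Mxd4 and Mxi1 overlap those of a gene on the opposite strand with 0 counts in every library.

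The balance within the network was taken from summed levels per kb, as a description without a test. The 6 antagonists summed to 74.4 to 79.1 CPM per kb in untreated tumours, 75.8 to 86.6 at 24 h and 81.9 to 96.3 in 5-day libraries 2 to 4. Divided by the sum of the 3 MYC paralogues, they gave ratios of 2.50, 1.86 and 2.00 in untreated tumours, 2.31, 2.20 and 2.35 at 24 h, and 2.31, 2.39 and 2.60 in 5-day libraries 2 to 4. These ratios overlap between the groups. In 5-day library 1 the antagonist sum was 65.4 CPM per kb, the lowest of the 10 libraries, and its ratio to the paralogues 3.65, the highest. Mxd3 made up 24.9%, 21.5% and 19.5% of the antagonist sum in untreated tumours and 25.6%, 29.5% and 31.3% at 24 h. Among 5-day libraries 2 to 4 its share was 27.2%, 22.8% and 25.2%, which overlaps the untreated values, and in library 1 it was 9.12%.

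All 9 partners summed and divided by Max gave 4.23, 3.99 and 3.99 in the untreated libraries. The ratio was 4.77, 4.48 and 5.10 at 24 h and 4.81, 6.15 and 5.38 in 5-day libraries 2 to 4, each above every untreated library. In 5-day library 1 it was 2.54, the lowest of all. Division by the longest transcript was an alternative chosen after seeing the data. It gave 2.65 to 2.84, 3.04 to 3.46 and 3.25 to 4.11 for the same libraries. Untreated and these treated libraries again did not overlap, and 5-day library 1 was lowest at 1.87. Both versions use the same counts, with Max, itself lower in these treated libraries, as divisor, so they are not independent. Macrophage markers, given above, were also higher in these treated libraries than in any untreated one. So were Schwann cell markers, which summed to 93.2 to 105 CPM in untreated tumours, 112 to 139 CPM at 24 h and 109 to 134 CPM in 5-day libraries 2 to 4. Their part in the ratio was not tested.

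**Figure D4:**
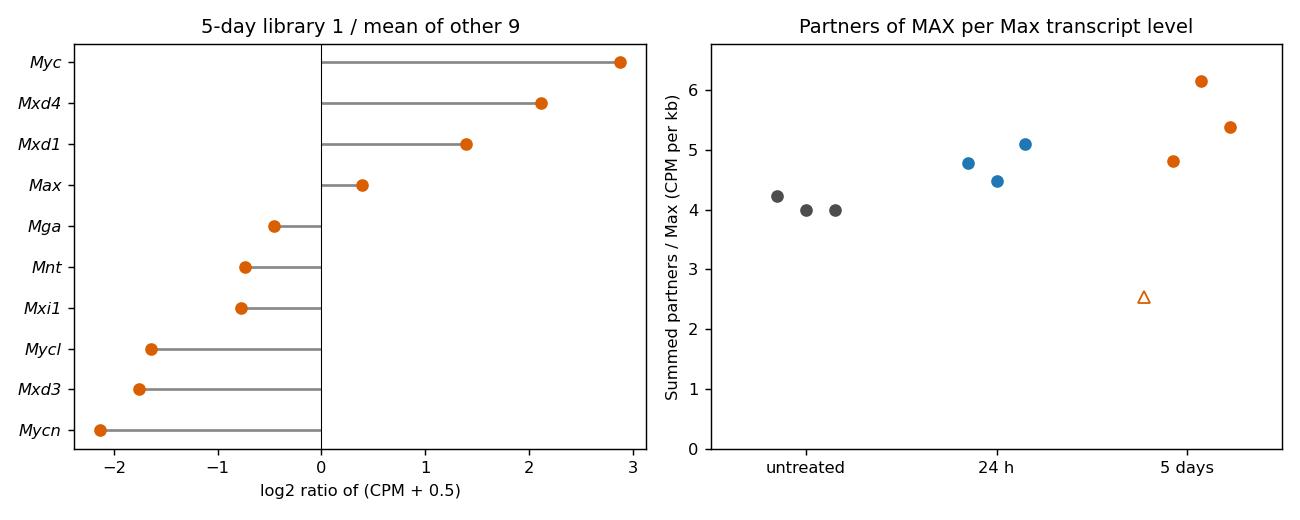
Left: log2 ratio of 5-day library 1 to the mean of the other 9 libraries for each gene, after adding 0.5 CPM. Right: summed level of the 9 partners of MAX divided by that of Max (CPM per kb), by library, with 5-day library 1 as an open triangle. Myc has the highest log2 ratio (2.88) and Mycn the lowest (-2.13).

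5-day library 1 differed from the other 9 in every member. Myc was 8.36 times, Mxd4 4.38 times, Mxd1 2.68 times and Max 1.31 times the mean of the others. Mycn was 4.45-fold lower, Mxd3 3.46-fold, Mycl 3.27-fold, Mxi1 1.71-fold, Mnt 1.67-fold and Mga 1.38-fold lower. All 10 values fell outside the range of the other libraries, 4 above and 6 below. Of all 14956 tested genes, 75.9% did so, with 37.8% above and 38.1% below, so the count is near that of genes at large. A single library gives no replicate check of these ratios.

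Genes whose pattern was most like that of Mycn were ranked by Pearson correlation of log2 CPM among 12502 other genes with a mean of at least 5 CPM. Over all 10 libraries they were Rcc1 (r = 0.990), Clasp1 (0.990), Enah (0.989), Myef2 (0.989) and Rnf165 (0.988), each of them lowest in 5-day library 1. Over the 9 others they were Agfg1 (0.951), Cdv3 (0.950), Cited2 (0.939), Utp4 (0.932) and Bcr (0.927). Within the network, Mga was closest to Mycn over 9 libraries (r = 0.784, rank 302), and Mxi1 over all 10 (r = 0.910, rank 1441). The points share libraries and scaling, and with 9 or 10 of them the order is a description.

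The genes around the network were read from lists. Of 5 further genes of the same protein class, Bmyc and Mycs had 0 counts in every library and 3 were tested, with 0 called in each comparison. Mlx, the partner of the glucose-sensing branch, was at 29.5, 36.7 and 32.6 CPM in untreated tumours and at 28.5 to 30.0 CPM at 24 h. Mlxip, which encodes MondoA, was at 87.6 to 100.4 CPM in untreated tumours and 127 CPM in 5-day library 1. Mlxipl, which encodes ChREBP of fat and liver, was at 68.7 and 9.78 CPM in 5-day libraries 1 and 2, with 0.174 to 3.82 CPM in the others. Adipocyte markers were highest in these same 2 libraries of the 10, and so were hepatocyte markers, at 9.78 CPM in library 1 and 340.0 CPM in library 2, with 0.174 to 2.78 CPM in the others. Their part in the value was not tested.

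Of 13 coactivators and partners of MYC, 0 were called, with 6 higher and 7 lower at 24 h and 9 higher and 4 lower at 5 days in 9 libraries. With all 10 the balance at 5 days was the opposite, with 2 higher and 11 lower. The elongation cyclin Ccnt1 was at 103 ± 20.5 CPM in untreated tumours and 91.6 ± 3.16 CPM at 24 h (SD, n = 3 each). The acetyltransferase Kat5 was at 61.0 ± 4.72 and 54.4 ± 6.87 CPM (SD, n = 3 each).

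The corepressors that MXD and MNT proteins recruit had 0 of 11 genes called. At 24 h, 2 were higher and 9 lower with a median log2 fold change of -0.08 in 9 libraries, beside 0.00 over all tested genes, and 4 of 11 lay wholly below the untreated libraries (background 6.74%). Hdac2, a histone deacetylase, was at 394 ± 16.3 CPM in untreated tumours and 347 ± 32.0 CPM at 24 h (SD, n = 3 each). Sap18, a subunit of the SIN3 complex, was at 88.9 ± 2.03 and 81.4 ± 5.11 CPM (SD, n = 3 each). Sin3a, the scaffold that binds MXD proteins, was at 20.8, 21.7 and 19.8 CPM in untreated tumours, 27.9, 13.6 and 18.7 CPM at 24 h and 25.9, 29.3 and 32.4 CPM in 5-day libraries 2 to 4. Those 3 were above the untreated values, with a log2 fold change of 0.50 ± 0.215 (SE) and adjusted p = 0.571 (edgeR, Benjamini-Hochberg). In 5-day library 1 it was at 19.6 CPM, and with it the log2 fold change was 0.37 ± 0.258. For 5-day libraries 2 to 4, 1 of the 11 corepressor genes lay wholly above and 1 wholly below the untreated libraries (background 6.61% and 7.6%).

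Among 9 genes of the PRC1.6 complex of MGA, 0 were called. Cbx3, which encodes a heterochromatin protein, was at 188, 175 and 167 CPM in untreated tumours and at 163, 183 and 170.3 CPM at 24 h. At 5 days it was at 65.6, 152, 147 and 153 CPM, each below every other library, and its log2 fold change in 9 libraries was -0.22 ± 0.0811 (SE) against untreated (adjusted p = 0.513, edgeR, Benjamini-Hochberg). With all 10 it was -0.45 ± 0.257 (adjusted p = 0.543). Of the 9 genes, 1 at 5 days lay wholly below the untreated libraries and 1 wholly below the 24 h libraries (background 4.89% and 4.35% with 10 libraries). In both comparisons 0 lay wholly above. Yaf2 was at 67.4 ± 5.88 CPM in untreated tumours and 59.6 ± 5.92 CPM in 5-day libraries 2 to 4, and the ubiquitin ligase Rnf2 at 86.1 ± 3.28 and 80.9 ± 8.30 CPM (SD, n = 3 each).

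Of 15 genes that act on the turnover of MYC proteins, 13 were tested and 0 called. Fbxw7, which encodes the recognition subunit of a ligase for MYC proteins, and Stub1 were listed at 0 in all 10 libraries. Both are known to be active in most cells, and no level is read from a listed 0. Aurka, which encodes the target of alisertib, was at 125, 139 and 122 CPM in untreated tumours, at 195, 172 and 224 CPM at 24 h, and at 57.8, 204, 169 and 183 CPM in 5-day libraries 1 to 4. Apart from 5-day library 1, every treated library was above the untreated ones, with log2 fold changes in 9 libraries of 0.62 ± 0.114 (SE) and 0.53 ± 0.114 and adjusted p = 0.145 and 0.237 (edgeR, Benjamini-Hochberg). With all 10 they were 0.61 ± 0.376 and 0.26 ± 0.352 (adjusted p = 1.00 and 0.759). At 24 h, 2 of the 13 tested genes lay wholly above and 2 wholly below the untreated libraries (background 7.15% and 6.74% in 9 libraries). For 5-day libraries 2 to 4 it was 2 above and 0 below (6.61% and 7.6%). The ligase gene Btrc was at 75.1 ± 10.3 CPM in untreated tumours and 63.8 ± 2.95 CPM at 24 h, and the deubiquitinase gene Usp28 at 39.7 ± 7.53 and 32.6 ± 2.16 CPM (SD, n = 3 each).

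Textbook E-box targets of MYC were the largest list, with 19 of 20 tested and 0 called. At 24 h, 2 were higher and 17 lower in 9 libraries, with a median log2 fold change of -0.06. At 5 days, 6 were higher and 13 lower with a median of -0.04. Both medians stand beside 0.00 over all tested genes, and 17 of 19 is not tested against chance. With all 10 libraries the counts and median at 24 h did not move, and the median at 5 days was -0.25, with 1 higher and 18 lower, beside 0.01 over all genes. Nop56, of the box C/D small nucleolar particle, was at 249, 266 and 266 CPM in untreated tumours, at 282, 280.3 and 278 CPM at 24 h and at 98.0, 243, 225 and 277 CPM in 5-day libraries 1 to 4. Ddx18, an RNA helicase of ribosome assembly, was at 61.6 ± 8.44 CPM in untreated tumours and 53.1 ± 2.54 CPM at 24 h (SD, n = 3 each). Tert, the catalytic subunit of telomerase, was at 18.7 ± 3.01 and 15.7 ± 1.70 CPM (SD, n = 3 each).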

How the data were processed

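The authors deposited whole-number read counts, 1 table per library and 1 row per Ensembl gene. The submitters' processing notes name mm10 as build and TopHat2 2.1.1, HISAT2 and edgeR as tools, but not what each did. The read counter, its annotation and its strand setting were not given in the sources used here. Symbols, positions and exon lengths came from GENCODE M21 (54409 of 54446 identifiers matched), promoters from RefSeq. The counts went into edgeR 4.0.16 (R 4.3.3) with filterByExpr (count minimum 10, total minimum 15), TMM scaling, a mean per group over all 10 libraries, robust quasi-likelihood F tests, and Benjamini-Hochberg adjustment over all tested genes at 0.05. Printed intervals are 95% intervals. The code was tested on simulated counts. Tried as alternatives were DESeq2 1.42.0 and its size factors, other filters, fits of the compared groups alone, a replicate block, and fits without single libraries. Network genes, lists and tests were chosen with earlier results of these data known. Genes named outside the network are at most 3 of each list, those with the smallest p before adjustment with 10 libraries, and the 5 most like Mycn. For the coactivator list, 1 gene that this rule names is not reported here. Plots used matplotlib 3.10.9 under Python 3.11.15.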

Additional observations from a re-analysis of the deposited data

Results flagged for a closer look

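In 4 of the 10 network genes, 5-day library 1 lay so far from the other 3 libraries of its group that its gap to the nearest took more of the range of the group than Dixon's 95% critical value for 4 values allows. They were Mycn at 21.5 CPM, Myc at 26.1 CPM, Mxd1 at 34.8 CPM and Mxd4 at 176 CPM. Chance meets this criterion in about 1 of 20 groups through any of their libraries, so this rate is not that of a named library. The 4 values come from the same library. Of all 14956 tested genes, 21.1% met it through that library, 17.8% high and 3.3% low.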

How the results depend on the processing

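No network gene was called under any alternative run, and the smallest adjusted p of any of them was 0.293. The count of all genes called was 0 in each comparison with the design chosen. It was 7 at 24 h with only the compared groups (edgeR), 21 at 5 days against untreated and 3 at 5 days against 24 h with DESeq2, and 0 to 2 at 24 h when libraries were left out in turn, with 2 without 5-day library 1. Of 387 alternative log2 fold changes of network genes, 362 kept their sign and 25 did not. With the replicate number as a block, 4 changed sign: Myc 0.12, Mycl -0.19 and Mxd1 0.04 at 24 h, and Mxd3 -0.16 at 5 days against untreated. Deviations from the group means of libraries with the same number had r = -0.395 to 0.247 over all shared numbers. Between untreated and 24 h libraries, the same numbers had r = 0.211 and 0.247, and differing numbers -0.291 to 0.0492. With so few libraries, these values do not settle whether the number marks a pairing. The block changed no count of calls, but it moved estimates that kept their sign. With all 10 libraries, Mycn went from -0.07 to -0.54 ± 0.401 (SE) at 24 h and from -0.29 to -0.63 ± 0.360 at 5 days against untreated. Mxd3 at 24 h went from 0.44 to 0.08 ± 0.490. Leaving out libraries in turn gave at 24 h -0.20 to 0.05 for Mycn, -0.04 to 0.21 for Mycl, -0.18 to 0.08 for Mnt and -0.16 to 0.02 for Mxi1. At 5 days against untreated it gave -0.46 to 0.03 for Mycn, -0.90 to 1.27 for Myc, -0.41 to 0.18 for Mycl, -0.01 to 0.35 for Mnt, -0.13 to 0.54 for Mxd1, -0.04 to 0.42 for Mxd3, -0.22 to 0.03 for Mxi1 and -0.17 to 0.10 for Mga. At 5 days against 24 h it gave -0.38 to 0.09 for Mycn, -0.23 to 1.94 for Myc, -0.50 to 0.08 for Mycl, -0.04 to 0.19 for Max and -0.16 to 0.09 for Mxi1. Of the changes of sign at 5 days, those of Mnt and Mxd3 came without 5-day library 4, and all others came without 5-day library 1, with Mga also changing without untreated library 2 and Mxi1 (against 24 h) without 24 h library 2. The cause was not tested. Myc is limited by depth, with 7 to 34 counts in 9 libraries.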
